A study of Drosophila melanogaster with 9 samples.

Results

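Domain-scale pairs, which join stretches of DNA 20 to 200 kb apart on the same chromosome arm, were taken from 2 lists of interacting pairs of 10 kb bins made by Hi-C, a method that ligates cut DNA within fixed nuclei and sequences the joined ends. A pair was included when its bins lay on arm 2L, 2R or 3L, the bin starts were this far apart, and neither bin start was in the first or last 1 Mb of the arm. This gave 1761 of the 59303 pairs in the heat-shock list (2.97%) and 1402 of the 33978 pairs in the companion list (4.13%). Together they were 2541 different pairs of the 82344 found in either list. The interior so defined held 6251 bins, or 62.51 Mb, with 20.94 Mb on 2L, 19.13 Mb on 2R and 22.44 Mb on 3L.

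In Drosophila, chromatin folds into physical domains, runs of DNA that touch each other more often than they touch their neighbours. The borders of these domains are known to lie mostly in gene-dense, active chromatin and to carry insulator proteins such as BEAF, CP190, CTCF and SuHw, which limit or bridge contacts. Heat shock is known to turn on the heat shock genes and to reduce transcription of most other genes.

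The heat-shock list covers 2 Hi-C libraries from Kc167 cells, a female line established from Drosophila melanogaster embryos. These cells were grown at 25 °C, held at 37 °C for 20 min and fixed with formaldehyde, and their chromatin was cut with HindIII, a restriction enzyme. No label used here ties the companion list to a sample, a treatment, a temperature or a number of libraries. The 7 ChIP and input libraries of the series were not analysed here. Each kind of list exists once, so no spread between replicates can be had and the lists were compared without a test. Intervals are at the 95% level, reflect counting error alone and take each pair as independent, although neighbouring pairs are not. The lists hold no read counts, so the depth is unknown. Every listed pair has an authors' score of -2 or below. An unlisted pair may have missed that limit or may not have been scored, which the lists do not tell. No source used here gives the background model behind that score, so a listed pair stands for a called interaction, and the number of pairs at a distance is not a contact frequency.

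The first question was at which distances within this range the lists differed. In raw numbers, the heat-shock list held more of the short pairs, while the long ones were about as many in each. At 20 to 50 kb there were 396 heat-shock and 234 companion pairs, a ratio of 1.69 (1.44 to 2.0). At 60 to 100 kb there were 468 and 319, a ratio of 1.47 (1.27 to 1.70). At 110 to 200 kb there were 897 and 849, a ratio of 1.06 (0.961 to 1.16), which includes 1. Over the whole range the ratio was 1.26 (1.17 to 1.35). The heat-shock list is the longer one as a whole. With only its strongest pairs kept, as many as the companion list holds in all, the ratios were 0.876 at 20 to 50 kb, 0.818 at 60 to 100 kb and 0.564 at 110 to 200 kb.

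In steps of 10 kb, the heat-shock number exceeded the companion number at 16 of the 19 distances. The shortest step, 20 kb, had the fewest heat-shock and companion pairs of any step, 64 and 43. At 30 kb there were 107 heat-shock and 64 companion pairs, at 40 kb 110 and 61, and at 50 kb 115 and 66. The 50 kb step was the fullest of the heat-shock list. The largest ratio was at 60 kb, where 105 heat-shock pairs stood against 55 companion pairs, a ratio of 1.91 (1.36 to 2.70). The companion list was fullest at 180 kb, with 107 heat-shock and 102 companion pairs. The companion number was the higher one at 120 kb (75 heat-shock and 85 companion pairs), 160 kb (84 and 86) and 190 kb (94 and 100). The interval of the ratio lay above 1 at 6 of the 19 steps, which were 30 to 70 kb and 90 kb, and below 1 at none. The rule ends at 200 kb, where there were 87 heat-shock and 85 companion pairs, and the first step outside it, 210 kb, had 97 and 86.

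**Figure D1:**
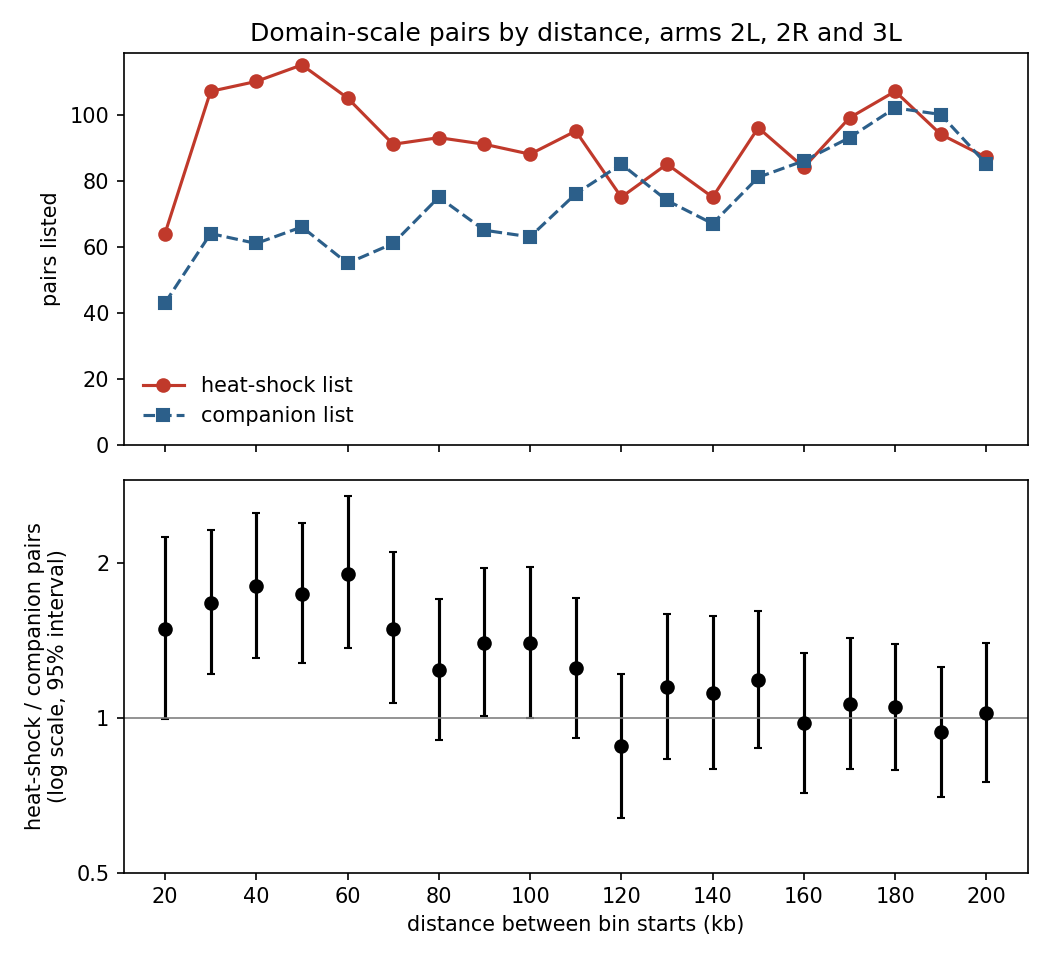
The number of listed pairs at each distance between bin starts in kb (top, heat-shock list as red circles and companion list as blue squares) and the ratio of the heat-shock to the companion number on a log scale with its 95% counting interval (bottom). The ratio is highest at 60 kb, at 1.91, and lies around 1 from 120 kb on.

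The median distance was 110 kb (100 to 110 kb) in the heat-shock list compared with 120 kb (120 to 130 kb) in the companion list. Pairs at 20 to 50 kb made up 22.5% (20.6 to 24.5%) of the heat-shock pairs and 16.7% (14.8 to 18.7%) of the companion pairs. Pairs at 110 to 200 kb made up 50.9% (48.6 to 53.3%) and 60.6% (57.9 to 63.1%). The ratio of the lists at 20 to 50 kb was 1.60 times that at 110 to 200 kb (1.32 to 1.94).

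Each distance can be read against the number of bin pairs that the interior could hold. Of 118142 possible pairs at 20 to 200 kb, 1.49% (1.42 to 1.56%) were in the heat-shock list compared with 1.19% (1.13 to 1.25%) in the companion list. Over all distances from 20 kb up on the same arms and interior, 0.403% of possible pairs were in the heat-shock list compared with 0.236% in the companion list. In the heat-shock list the share was nearly level across the distance classes, at 1.59% for 20 to 50 kb, 1.5% for 60 to 100 kb and 1.45% for 110 to 200 kb. In the companion list it was 0.937%, 1.02% and 1.37%. Single steps of 10 kb varied more. They ran from 1.02% at 20 kb to 1.84% at 50 kb in the heat-shock list. In the companion list they ran from 0.689% at 20 kb to 1.65% at 180 kb.

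Pairs 210 kb to 1 Mb apart on the same arms and interior numbered 6341 for heat shock against 4547 companion pairs, a ratio of 1.39 (1.34 to 1.45). The ratio for the domain-scale pairs was 0.901 times this (0.831 to 0.976). That value turned to 1.11 (0.976 to 1.26) among the strongest 50% of each list, and its interval included 1 without arm 2R (0.939, 0.852 to 1.036) and without arm 3L (0.917, 0.830 to 1.014). That of the pairs at 20 to 50 kb was 1.21 times it (1.03 to 1.44) and that of the pairs at 110 to 200 kb 0.758 times (0.684 to 0.840). Of the distance classes counted, 110 to 200 kb had the lowest ratio, with higher ones on both sides. Pairs over 1 and up to 5 Mb apart had a ratio of 2.03 (1.97 to 2.09). All pairs over 200 kb apart had a ratio of 1.75 (1.71 to 1.79). The ratio for the domain-scale pairs was 0.718 times that value (0.667 to 0.773).

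The arms were not alike. Arm 3L had 640 heat-shock and 474 companion pairs, a ratio of 1.35 (1.2 to 1.52), and 2L had 590 and 445, a ratio of 1.33 (1.17 to 1.5). Arm 2R had 531 and 483, a ratio of 1.10 (0.970 to 1.25), or 0.821 times (0.705 to 0.957) the ratio of 2L and 3L together. At 20 to 50 kb, 3L had 161 heat-shock and 76 companion pairs, a ratio of 2.12 (1.60 to 2.82), 2R had 104 and 66, and 2L had 131 and 92. At 110 to 200 kb, 2R had 284 heat-shock and 312 companion pairs, 3L had 315 and 297, and 2L had 298 and 240. The ratio at 20 to 50 kb was 2.0 times that at 110 to 200 kb on 3L (1.44 to 2.78), 1.73 times on 2R (1.21 to 2.49) and 1.15 times on 2L (0.826 to 1.59), where the interval includes 1. The same quantity was 2.02 (1.49 to 2.75) in the interior of 3R and 1.54 (1.11 to 2.16) in that of X.

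The second question was how many of the pairs both lists held. The shared pairs numbered 622, which was 35.3% (33.1 to 37.6%) of the heat-shock pairs and 44.4% (41.7 to 47.0%) of the companion pairs. Over all distances on the same arms and interior, 16.8% of heat-shock pairs and 28.6% of companion pairs were shared. Among pairs 210 kb to 1 Mb apart the shares were 30.0% (28.9 to 31.1%) of the heat-shock pairs and 41.8% (40.4 to 43.3%) of the companion pairs, so the companion shares of these neighbouring classes have overlapping intervals. The remaining 1139 domain-scale pairs were in the heat-shock list alone and 780 in the companion list alone. Of these, 841 heat-shock pairs and 575 companion pairs had no pair of the other list within 1 bin at both ends. They made up 47.8% (45.4 to 50.1%) of all domain-scale heat-shock pairs and 41.0% (38.4 to 43.6%) of all domain-scale companion pairs. This share is not given for other distances, so it cannot be called particular to domain-scale pairs.

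Short companion pairs were found in the heat-shock list more often than long ones. At 20 to 50 kb 128 pairs were shared, which was 32.3% (27.7 to 37.2%) of the heat-shock pairs and 54.7% (48.1 to 61.2%) of the companion pairs. At 110 to 200 kb 343 were shared, 38.2% (35.0 to 41.5%) of the heat-shock pairs and 40.4% (37.1 to 43.8%) of the companion pairs. The lists held 396 heat-shock and 234 companion pairs at 20 to 50 kb, and 897 and 849 at 110 to 200 kb. The unequal numbers at short distances by themselves lower the heat-shock share there and raise the companion share. Whether short companion pairs were shared more often beyond this was not tested. Pairs in the heat-shock list alone had a median distance of 100 kb (100 to 110 kb), those in the companion list alone 130 kb (120 to 130 kb), and shared pairs 120 kb (110 to 130 kb).

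**Figure D2:**
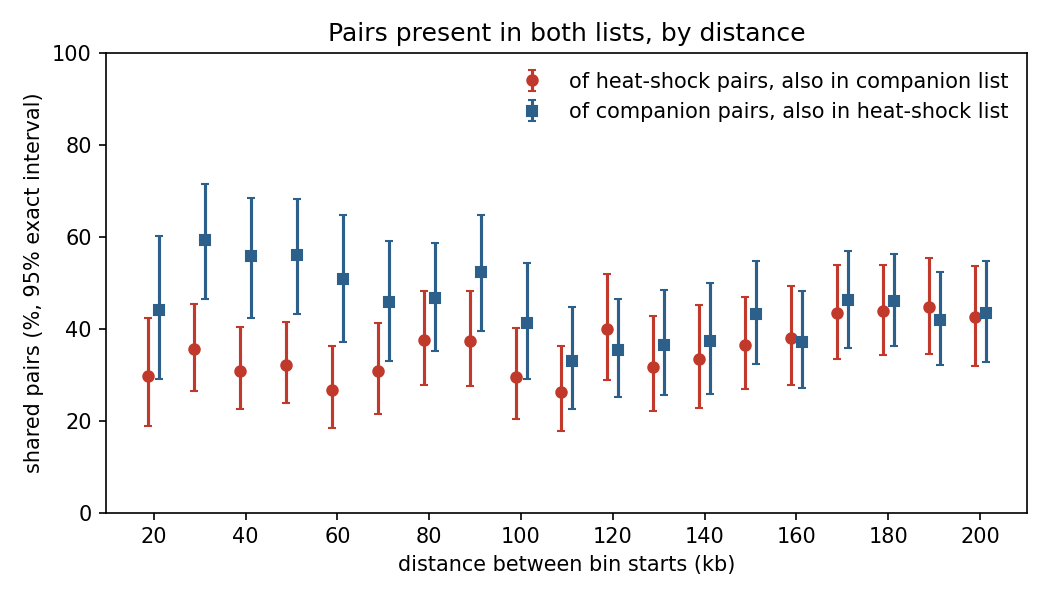
The percentage of heat-shock pairs that were also in the companion list (red circles) and of companion pairs that were also in the heat-shock list (blue squares) at each distance in kb, with exact 95% intervals. The companion share is highest at 30 kb, at 59.4%, and lowest at 110 kb, at 32.9%.

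Pairs with strong scores were in both lists more often than weak ones. A score is more negative for a stronger pair, and scores are compared within a list only. Of the strongest 10% of the heat-shock pairs 79.0% (72.2 to 84.7%) were shared, and of the weakest 10% 19.3% (13.8 to 25.9%). In the companion list these shares were 87.1% (80.4 to 92.2%) and 24.3% (17.4 to 32.2%). Among heat-shock pairs with a score of -5 or below, 76 of 87 were shared. Among companion pairs with such a score, 27 of 29 were shared. The scale of the score may differ between the lists, so 87 and 29 are not to be set against each other. The 622 shared pairs are not independent of each other; across them the scores of the lists had a Spearman rho of 0.41.

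The strongest heat-shock pair joined 3L 3410001-3420000 to 3L 3440001-3450000, 30 kb apart, and scored -14.4 as a heat-shock pair and -6.03 as a companion pair. The next joined 3L 20530001-20540000 to 3L 20720001-20730000, 190 kb apart. It scored -13.3 as a heat-shock pair and -9.15 as a companion pair, and it was the second strongest in both lists. The third heat-shock pair joined 3L 3170001-3180000 to 3L 3210001-3220000 and scored -11.4 as a heat-shock pair and -2.84 as a companion pair. The fourth joined 2L 20930001-20940000 to 2L 21040001-21050000, 110 kb apart, with -11.2 as a heat-shock pair and -5.96 as a companion pair. The last of the 5 joined 3L 10730001-10740000 to 3L 10840001-10850000, also 110 kb apart, with -10.8 and -4.71. All 5 were shared.

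The strongest companion pair joined 2L 1760001-1770000 to 2L 1810001-1820000, 50 kb apart, with -9.24 as a heat-shock pair and -12.1 as a companion pair. It had no neighbouring companion pair within 1 bin at both ends. The third and the last of the 5 joined 3L 1360001-1370000 to the adjacent bins 3L 1460001-1470000 and 3L 1470001-1480000. The first of these scored -9.54 as a heat-shock pair and -8.74 as a companion pair, and the second -5.65 and -8.10. The fourth joined 2R 10890001-10900000 to 2R 10990001-11000000, 100 kb apart, with -7.56 as a heat-shock pair and -8.70 as a companion pair. All 5 were in the heat-shock list too.

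Pairs in 1 list alone had weaker scores. The strongest in the heat-shock list alone joined 2L 1980001-1990000 to 2L 2160001-2170000, 180 kb apart, with -7.09. It was followed by 3L 16370001-16380000 with 3L 16570001-16580000, 200 kb apart and with -6.62, and 3L 2680001-2690000 with 3L 2870001-2880000, 190 kb apart and with -5.87. The strongest in the companion list alone joined 2R 2210001-2220000 to 2R 2350001-2360000, 140 kb apart, with -5.48. The others named were 2L 4230001-4240000 with 2L 4310001-4320000, at -5.02, and 2R 2170001-2180000 with 2R 2330001-2340000, at -4.96. The median score was -2.93 for shared pairs and -2.40 for the other pairs in the heat-shock list, and -2.65 and -2.27 in the companion list.

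The third question was how the pairs were gathered on bins. A few bins collected many more domain-scale pairs in the heat-shock list than any bin did in the companion list. Most bins had none: 26.7% (25.7 to 27.9%) of interior bins had at least 1 domain-scale pair in the heat-shock list compared with 24.0% (23.0 to 25.1%) in the companion list, and the median among them was 1 in each. There were 39 bins with 10 or more pairs in the heat-shock list compared with 4 in the companion list, and all 4 were among the 39. The bins with 15 or more numbered 10 and 0. Of the 2290 bins with a pair in either list, 1118 (48.8%) had more heat-shock pairs, 804 (35.1%) had more companion pairs and 368 had as many of each.

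Both bins at the top of the heat-shock list had 26 pairs. The bin 2L 21040001-21050000 had 26 heat-shock pairs, 15 towards lower and 11 towards higher coordinates, against 6 companion pairs, all towards lower coordinates. The bin 2R 3150001-3160000 had 26 heat-shock pairs, 14 and 12 on these sides, against 3 companion pairs, all on the lower side. The bin 3L 21170001-21180000 had 19 heat-shock and 5 companion pairs. The bin 2L 21800001-21810000 had 17 and 6, and 2R 8640001-8650000 had 17 and 4. The bins directly beside these 5 had no domain-scale heat-shock pair, except for 1 pair in a bin next to 2R 8640001-8650000.

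Over all 39 heat-shock bins with 10 or more pairs, 65 of their 78 neighbouring bins had no domain-scale pair. Most bins are empty in any case: 4579 of the 6251 interior bins had no domain-scale heat-shock pair. Of the 39 bins, 26 were also among the 1% of bins with most partners at any distance in either list, here called top bins (112 per list over all arms, of which 88 different ones lay in the interior of these arms). Over the 39 bins the median number of heat-shock partners at all distances was 113.

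In the companion list the bin 2R 5670001-5680000 had 13 heat-shock and 10 companion pairs, all towards lower coordinates in both. The bin 2R 5690001-5700000, 20 kb further on, had 10 in each list, again all on the lower side. The bin 2R 7290001-7300000 had 11 heat-shock and 10 companion pairs, of which 9 and 10 lay on the higher side. The bin 3L 20530001-20540000, which is in the pair ranked second in both lists, had 15 heat-shock and 10 companion pairs, with 12 and 10 on the higher side. The last of the 5, 2L 19200001-19210000, had 3 heat-shock and 9 companion pairs, all on the higher side.

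**Figure D3:**
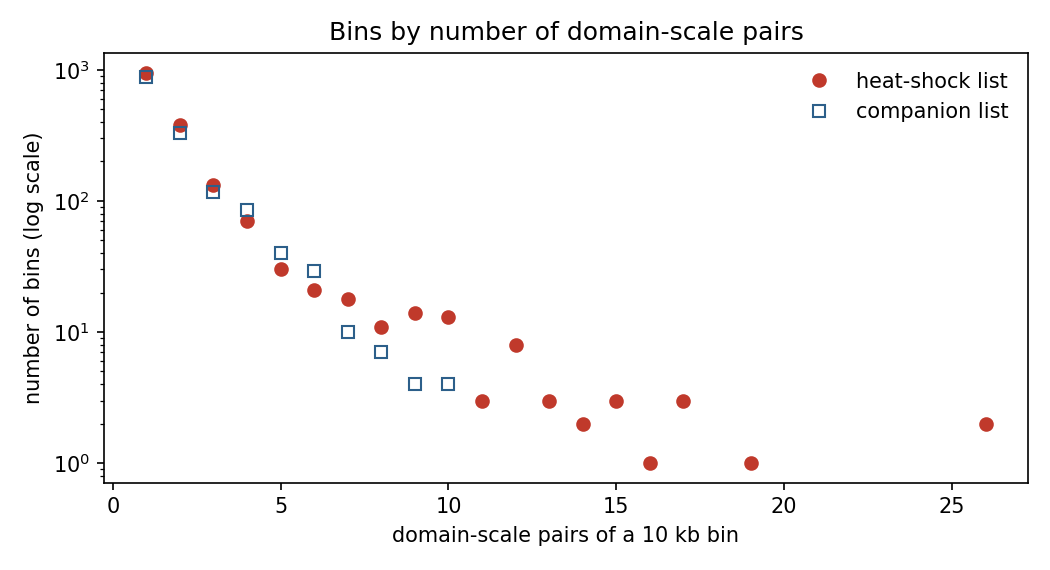
The number of interior bins (log scale) against the number of domain-scale pairs a bin belonged to, for the heat-shock list (red circles) and the companion list (blue squares); bins with no pair are left out. No companion bin has more than 10 pairs, whereas the heat-shock list reaches 26.

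The bins differed in whether their pairs lay on the same side. Bins with 4 or more pairs numbered 203 in the heat-shock list compared with 180 in the companion list, a limit chosen after the data were seen. All pairs of a bin lay on the same side for 39.9% (33.1 to 47.0%) of these heat-shock bins and 82.2% (75.8 to 87.5%) of these companion bins. In the heat-shock list 40 such bins had pairs towards higher coordinates only and 41 towards lower coordinates only, and in the companion list 73 and 75. The difference was there at equal numbers of pairs per bin: among bins with exactly 4 pairs the share was 54.3% (41.9 to 66.3%) of 70 heat-shock bins and 87.2% (78.3 to 93.4%) of 86 companion bins. Among bins with 10 or more pairs it was 12.8% (4.30 to 27.4%) of 39 heat-shock bins and 100% (39.8 to 100%) of only 4 companion bins.

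With the heat-shock list cut to the length of the companion list the heat-shock share was 36.6% (26.8 to 47.2%), and without pairs of top bins the shares were 54.5% (45.7 to 63.1%) and 88.0% (81.7 to 92.7%). Among pairs 210 kb to 1 Mb apart they were 47.3% (44.0 to 50.6%) of heat-shock bins and 58.8% (55.2 to 62.4%) of companion bins. In the interiors of 3R and X, at 20 to 200 kb, they were 29.9% (23.0 to 37.5%) and 65.7% (56.0 to 74.6%).

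Pairs with top bins moved with the difference in numbers. Of the domain-scale pairs, 544 heat-shock pairs (30.9%, 28.7 to 33.1%) and 200 companion pairs (14.3%, 12.5 to 16.2%) touched a top bin. Among pairs over 200 kb apart on the same arms and interior the shares were 30.5% (29.9 to 31.1%) for heat-shock and 19.3% (18.6 to 19.9%) for companion pairs, so the heat-shock share was that of other distances and the companion share was lower. The pairs that touched none numbered 1217 heat-shock and 1202 companion pairs, a ratio of 1.012 (0.934 to 1.10). The top bins were chosen by partner numbers in these same lists, so leaving them out is not independent of that difference, and their part in it was not tested. At 20 to 50 kb the ratio without top bins was still 1.61 (1.34 to 1.95), from 302 heat-shock and 187 companion pairs. At 60 to 100 kb it was 1.16 (0.985 to 1.37), from 313 and 269. At 110 to 200 kb it was 0.807 (0.724 to 0.900), from 602 and 746, so that here the companion list held more. Of the companion pairs that touched a top bin 83.5% (77.6 to 88.4%) were shared, and of the heat-shock pairs 30.7% (26.8 to 34.8%). At most 200 of the 544 heat-shock pairs could be shared, so the unequal numbers hold the heat-shock share down. Of the pairs that touched none, 37.4% (34.7 to 40.2%) of heat-shock and 37.9% (35.1 to 40.7%) of companion pairs were shared.

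The fourth question was how the pairs cluster along the arms. A cluster is a set of pairs of a list linked by steps of at most 1 bin at both ends, so that it forms a patch or a line on the contact map. About equal parts of the lists as deposited were clustered, but not at equal length. Clusters of 3 or more pairs held 743 heat-shock pairs (42.2%, 39.9 to 44.5%) in 157 clusters and 586 companion pairs (41.8%, 39.2 to 44.4%) in 129 clusters. Single pairs made up 37.7% and 37.8%. At equal length clusters of 3 or more held 31.9% (28.9 to 34.9%) of heat-shock pairs, against the same 41.8% of companion pairs. That cut equals the whole lists and leaves fewer domain-scale heat-shock than companion pairs, a ratio of 0.674. The shares are therefore not at equal numbers of domain-scale pairs. Among pairs 210 kb to 1 Mb apart in the lists as deposited they held 39.8% (38.6 to 41.0%) and 45.2% (43.7 to 46.7%). Clustered companion pairs were longer, with a median of 110 kb (110 to 120 kb) in heat-shock clusters of 3 or more and 150 kb (140 to 150 kb) in companion clusters. In clusters of 5 or more the medians were 130 kb (120 to 140 kb) and 160 kb (160 to 170 kb).

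Lines and patches occurred in both lists. All pairs of a cluster shared the same bin, forming a line, in 89 of the 157 heat-shock clusters (56.7%, 48.6 to 64.6%) and 53 of the 129 companion clusters (41.1%, 32.5 to 50.1%), with overlapping intervals. At least 1 shared pair was found in 118 heat-shock clusters (75.2%) and 91 companion clusters (70.5%). In the heat-shock list, 43.5% (39.9 to 47.1%) of pairs in clusters of 3 or more were shared and 26.7% (23.3 to 30.2%) of single pairs. In the companion list these were 45.9% (41.8 to 50.04%) and 39.4% (35.2 to 43.7%), with overlapping intervals.

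The largest heat-shock cluster had 18 pairs. It joined 10 bins in 3L 10680001-10780000 to the 3 bins of 3L 10820001-10850000, at 60 to 160 kb, with scores of -10.8 to -2.04. Of its pairs 10 were in the companion list, which had 11 pairs in the same rectangle. The second had 17 pairs between 3L 1330001-1370000 and 3L 1450001-1530000, of which 8 were in the companion list. The third was a line: 2L 21800001-21810000 was joined to each of the 13 bins of 2L 21850001-21980000, with 5 of these pairs in the companion list. It ends next to the last interior bin of 2L, past which pairs were left out.

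The 3 largest companion clusters were mostly not in the heat-shock list, which was not so for large companion clusters in general. Over all clusters of 5 or more, 48.0% (42.3 to 53.8%) of the companion pairs were shared. The same share of the heat-shock pairs was 48.7% (43.5 to 53.9%). The first had 13 companion pairs between 2L 12750001-12800000 and 2L 12900001-12960000, at 140 to 200 kb, and the heat-shock list had 1 pair there. Its scores, -2.48 to -2.01, were all close to the limit of the list. The second had 12 companion pairs between 3L 6270001-6290000 and 3L 6420001-6480000, with scores of -3.77 to -2.05, and the heat-shock list had 0 pairs there. The third had 11 companion pairs between 2R 1650001-1700000 and 2R 1830001-1860000, against 2 heat-shock pairs.

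**Figure D4:**
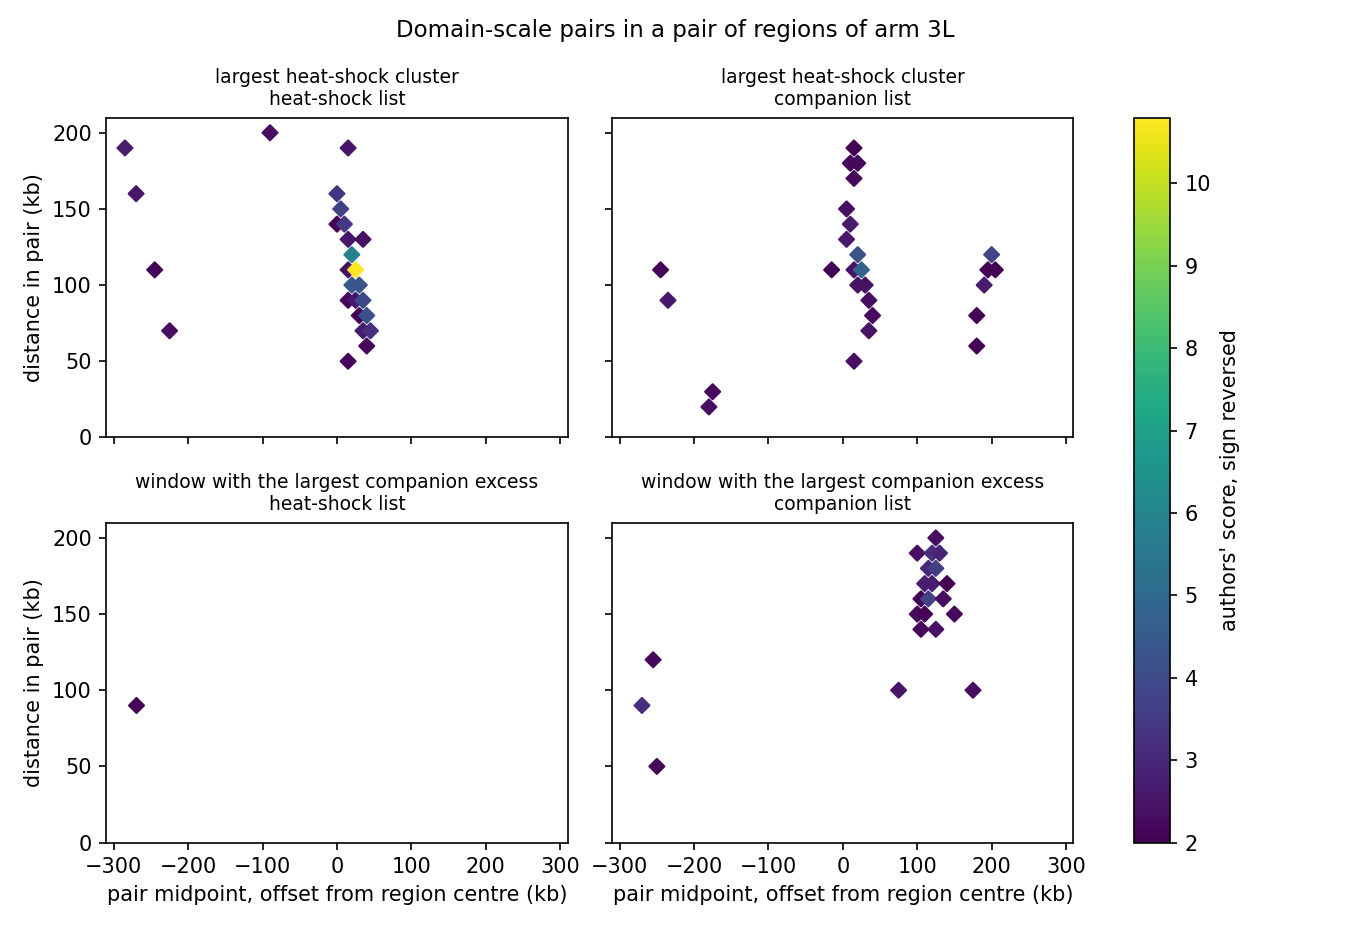
Domain-scale pairs within 300 kb of the centre of the largest heat-shock cluster (top) and of the 500 kb window with the largest companion excess (bottom), in the heat-shock list (left) and the companion list (right), on arm 3L. Each point is a pair, placed by the offset of its midpoint from the centre and its distance, both in kb, and coloured by the authors' score with its sign reversed. Of the 18 heat-shock pairs of the top cluster, 10 are in the companion list too, and the patch of 12 pairs in the bottom window is in the companion list alone.

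Seen along the arms, the pairs of the longer heat-shock list reached over more of the interior, an order that turned round when that list was cut to the length of the companion list. The bins lying from the first to the second bin of at least 1 domain-scale pair made up 67.8% (66.7 to 69.0%) of the interior in the heat-shock list, or 42.4 Mb, and 57.7% (56.4 to 58.9%) in the companion list, or 36.04 Mb. At equal length the cover was 50.008% (48.8 to 51.3%) for heat-shock pairs against the same 57.7% for companion pairs. The cut list held fewer domain-scale pairs than the companion list, a ratio of 0.674, so this is not cover at equal numbers of such pairs. Both lists covered 3029 bins, 1211 bins were covered by the heat-shock list alone, 575 by the companion list alone and 1436 by neither. The heat-shock cover came in 158 stretches with a median length of 200 kb, and the companion cover in 222 stretches with a median of 160 kb. Stretches of 500 kb or more numbered 18 in the heat-shock list compared with 1 in the companion list. The number of pairs over a bin had a Spearman rho of 0.53 across the 6251 bins, which share libraries and are not independent.

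The longest covered stretch of the heat-shock list was 2L 1090001-3040000, 1950 kb, with 78 heat-shock and 54 companion pairs inside and 70.3% of its bins covered in the companion list. Next were 3L 2260001-3720000, 1460 kb with 88 heat-shock and 45 companion pairs, and 2L 6100001-7420000, 1320 kb with 54 and 44. The longest of the companion list was 2L 11000001-11500000, 500 kb, with 31 heat-shock and 30 companion pairs. It was covered throughout in both lists. Next were 2R 15660001-16110000, with 6 heat-shock and 20 companion pairs, and 3L 2590001-3040000, with 25 in each list. Both were 450 kb long, as was 3L 23050001-23500000, with 21 heat-shock and 7 companion pairs.

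Stretches with no domain-scale pair over them also differed. The longest of the heat-shock list was 3L 13020001-13990000, 970 kb, where the companion list had 21 pairs and covered 60.8% of the bins. Of its 97 bins, 88 had a partner at some distance in the heat-shock list compared with 87 in the companion list, so both lists used most of them. The second was 3L 14050001-14770000, 720 kb with 2 companion pairs, and the third 3L 6030001-6740000, 710 kb with 19 companion pairs. In the third, 67 of 71 bins had a heat-shock partner at some distance and 60 a companion partner. The longest of the companion list were 2L 16800001-17630000, 830 kb with 2 heat-shock pairs, 2L 15500001-16260000, 760 kb with 1, and 2L 3610001-4110000, 500 kb with 1. Over all uncovered bins, 91.8% in the heat-shock list compared with 84.0% in the companion list had a partner at some distance. Over all interior bins these shares were 92.6% and 83.7%, close to those of the uncovered bins.

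In windows of 500 kb, by the midpoint of a pair, the median was 12 pairs in the heat-shock list (0 to 66) and 10 in the companion list (0 to 43) over 127 windows. The heat-shock number was higher in 71 windows, lower in 47 and the same in 9, with a Spearman rho of 0.52 across windows. The largest heat-shock excess was at 3L 1000001-1500000, a window of which the first part lies in the trimmed end, with 66 heat-shock and 27 companion pairs. Next were 3L 21000001-21500000, with 44 and 13, and 3L 3000001-3500000, with 39 and 10. The other windows with most heat-shock pairs were 2R 3000001-3500000, with 40 heat-shock and 15 companion pairs, and 2R 5500001-6000000, with 40 and 29.

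The window with most companion pairs was 2R 19000001-19500000, with 34 heat-shock and 43 companion pairs. It was followed by 2R 9500001-10000000, with 22 and 36, 2L 19000001-19500000, with 35 and 32, 2L 11000001-11500000, with 38 and 30, and 2R 2000001-2500000, with 27 and 29. The largest companion excess was at 3L 6000001-6500000, with 0 heat-shock and 20 companion pairs. In that window pairs 210 kb to 1 Mb apart numbered 36 heat-shock and 31 companion, which is below the ratio of 1.39 for such pairs over the whole interior. Of its bins, 47 were used at some distance in the heat-shock list compared with 42 in the companion list. Over all interior bins 92.6% and 83.7% were used. At 2R 1500001-2000000 there were 4 heat-shock and 21 companion pairs, and 28 and 16 pairs 210 kb to 1 Mb apart, above that ratio. At 2R 16000001-16500000 there were 2 and 18, and 40 and 39 of the longer pairs, below it.

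Of the 74 windows with at least 20 pairs over both lists, 4 (5.41%) had at least 4 times as many heat-shock as companion pairs. These were 2L 8000001-8500000, with 34 heat-shock and 7 companion pairs, 2L 21000001-21500000, with 23 and 5, 2L 21500001-22000000, with 29 and 7, and 3L 4000001-4500000, with 25 and 5. Other windows of the 74 passed the 4-fold limit in the opposite direction, which was looked at after the values were seen. No share in that direction is given for pairs 210 kb to 1 Mb apart, so it cannot be called particular to domain-scale pairs. They were 3L 6000001-6500000, with 0 heat-shock and 20 companion pairs, and 2R 1500001-2000000, with 4 and 21. So did 2R 16000001-16500000, with 2 and 18, and 2L 12500001-13000000, with 4 and 17. In 25 of the 74 windows (33.8%) the heat-shock number did not exceed the companion number. For pairs 210 kb to 1 Mb apart, 2.88% of 104 windows had at least 4 times as many heat-shock as companion pairs. In 17.3% of them the heat-shock number did not exceed the companion number. Across the 127 windows the number of domain-scale pairs and the number of these longer pairs had a Spearman rho of 0.01 in the heat-shock list compared with 0.23 in the companion list.

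**Figure D5:**
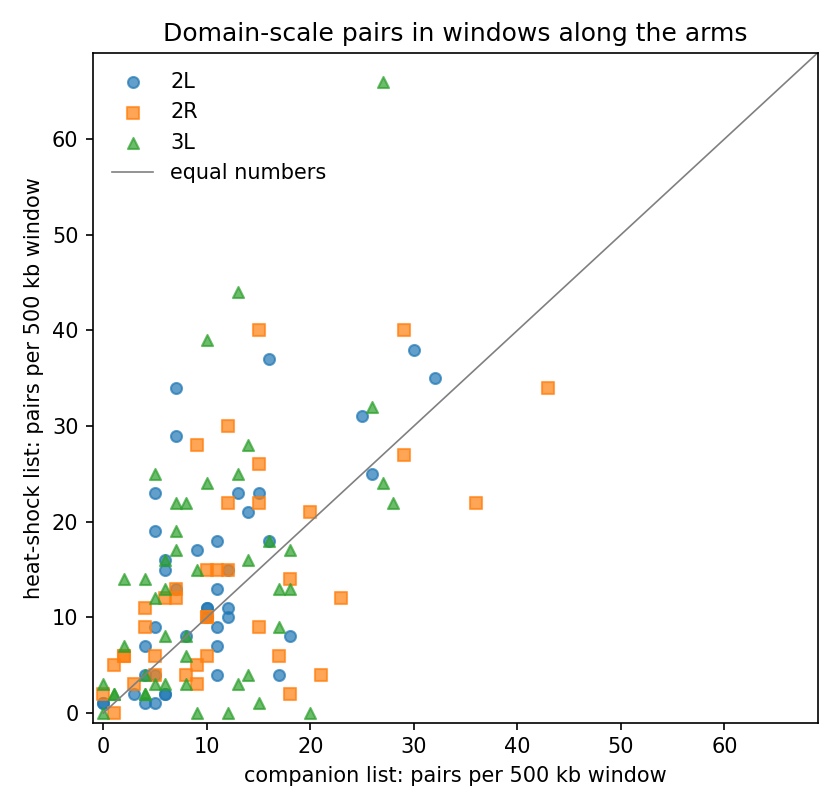
Domain-scale pairs per 500 kb window in the heat-shock list (vertical axis) against the companion list (horizontal axis), 1 point per window, with circles for 2L, squares for 2R and triangles for 3L and a grey line of equal numbers. The highest point is the window of 3L with 66 heat-shock and 27 companion pairs, and a 3L window lies at 0 heat-shock and 20 companion pairs.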

How the data were processed

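The data were 2 lists of bin pairs from Hi-C. A line holds an arm, the limits of 2 bins of 10 kb, counted from 1, and the authors' deposited score, negative throughout. No source used here gives its base, test or scale, so it ranks pairs within a list. Per the submitters' processing notes Bowtie 0.12.7 was used. The genome build is named in no source used here, so no gene or sequence was assigned. Both heat-shock Hi-C libraries are labelled with the same list, and how they were pooled is not stated.

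Arm limits were the lowest and highest coordinate over both lists. Pairs were shared when both bins were identical. Intervals are exact binomial (Clopper-Pearson) for shares, exact conditional for ratios and from order statistics for medians, computed with Python 3.11.15 and scipy 1.17.1. Functions were tested on simulated lists. Named per list are the 5 strongest pairs, the 3 strongest in that list alone, the 3 largest clusters and the 3 longest covered and uncovered stretches. Also named are the 5 bins and 5 windows with most pairs per list and the 3 windows with the largest excess each way. Windows past 4-fold either way and a tied stretch were chosen after their values were seen. The members and rules were chosen with earlier results of these data known. Alternatives were the strongest 50% of each list, equal length, no top bins, 2 Mb trimmed, leaving out an arm, sharing within 1 bin, links within 2 bins and a 100 kb limit.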

Additional observations from a re-analysis of the deposited data

How the results depend on the processing

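Of 95 values under other settings, 58 lay inside the reported interval, 29 lay outside it on the same side of 1 or with no such side, and 8 ratios crossed 1. Where no construction is named, the cause was not tested. At equal length only the strongest heat-shock pairs are kept, which by construction shortens that list, so ratios fell to 0.674 for all domain-scale pairs, 0.876 at 20 to 50 kb, 0.818 at 60 to 100 kb and 0.564 at 110 to 200 kb, in the reported order of the 3 distance classes. There the heat-shock cover was 50.008%, below the companion cover of 57.7%, clusters of 3 or more held 31.9% of heat-shock pairs, and 45.9% of heat-shock and 31.0% of companion pairs were shared. Among the strongest 50% of each list the ratio was 1.57 for all, 1.87 at 20 to 50 kb, 2.10 at 60 to 100 kb and 1.29 at 110 to 200 kb, so the order of the 2 shorter classes was not kept, and relative to pairs 210 kb to 1 Mb apart it crossed to 1.11. The cover was then 45.6% for heat-shock and 36.2% for companion pairs, clusters held 29.3% and 23.3%, the shared parts were 31.3% and 49.0%, and 88.6% of companion bins had all pairs on the same side.

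Without top bins the ratio was 1.012 for all and 1.16 at 60 to 100 kb, and crossed to 0.807 at 110 to 200 kb. The heat-shock share up to 50 kb was 24.8%, the cover 58.6% for heat-shock and 51.7% for companion pairs, the shared part of the companion pairs 37.9%, and bins with all pairs on the same side made up 54.5% and 88.0%. With 2 Mb trimmed the heat-shock cover was 65.4% and the ratio at 110 to 200 kb 0.992; without arm 2L that ratio was 0.984, and the reported interval includes 1. Looser definitions raised values by construction: sharing within 1 bin gave 52.2% of heat-shock and 59.0% of companion pairs, links within 2 bins put 64.4% and 65.0% in clusters of 3 or more, and 49.1% and 39.4% lay up to 100 kb apart. Settings for the sides of bins were added after the data were seen. No paired analysis was possible because each list exists once, and no library could be left out.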
